A study of Rattus norvegicus with 18 samples.

Results

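The strongly enriched m6A peaks are the stretches of transcript whose RNA was recovered with an antibody against N6-methyladenosine at a fold enrichment of 3 or more over the input RNA. They were taken from 2 peak lists of rat H9c2 cells, 1 for bufalin against control and 1 for periplocin against control. In the bufalin list 445 of 9866 peaks (4.51%) reached that fold, on 422 of the 5122 gene names that carried any peak. In the periplocin list 371 of 9170 peaks (4.05%) did, on 348 of 4879 gene names. Together they were 816 of 19036 listed peaks. The peaks were chosen by the fold enrichment in the authors' own lists, so these folds are given as a description without a test.

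H9c2 is a myoblast line derived from rat heart, and all cells carried the wild type genotype. The study asked whether m6A takes part in the cardiotoxicity of bufalin, a bufadienolide, and periplocin, a cardenolide glycoside. Both belong to the cardiac glycosides, which inhibit the sodium pump. There were 18 libraries: immunoprecipitated RNA and input RNA from untreated control cells, cells given bufalin and cells given periplocin, with 3 of each of these 6 kinds. The labels give neither dose nor time, so the lists are set side by side and the compounds are not compared at a matched dose. Whether the 3 libraries of a kind came from separate cultures is not stated, so p-values may measure technical spread only.

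N6-methyladenosine is written onto messenger RNA in the nucleus by a complex built on Mettl3 and Mettl14, and can be removed by Fto and Alkbh5. YTH domain proteins bind the mark and change the decay, splicing or translation of the transcript. In mammalian transcripts the mark is known to gather in long internal exons and around the stop codon, and stretches close to splice junctions carry little of it. In this assay RNA is fragmented before the antibody step, so a peak covers a stretch of transcript rather than a base.

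Each list gives a single value per peak for a whole comparison, so no value per library, replicate spread or read depth stood behind a fold. The fold was read as drawn from treated and control libraries, which no header states. Both lists share the control libraries. The RNA tables showed what the cells express: 6 of 8 myoblast markers had an authors' mean of at least 10 normalized counts in the bufalin table, among them Cdh15 at 2259 and Myod1 at 716, while Myf5 and Pax7 were listed at 0. Of 9 cardiomyocyte markers 6 reached that level, led by Tnnt2 at 4293. Of 6 fibroblast markers 4 did, with Col1a1 at 412632 and Dcn listed at 0. Endothelial, leukocyte and epithelial markers reached it in 2 of 5, 2 of 5 and 1 of 4, with summed means of 295, 108 and 1100, and Kdr, Adgre1, Epcam, Cdh1 and Krt18 were listed at 0. The part of other cell types in the results below was not tested.

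Most strongly enriched peaks lay close above the threshold. The median fold was 3.29 in the bufalin list, with quartiles of 3.1 and 3.6 and a highest value of 16. For periplocin the median was 3.26, the quartiles 3.1 and 3.58 and the highest value 24.1. Folds from 3 to under 3.5 made up 315 of 445 and 260 of 371 peaks, and only 29 and 13 peaks reached 5. The remaining peaks of the lists had medians of 1.8 and 1.78. There was no gap at the threshold: 17 bufalin peaks were listed at exactly 3 and 4 at 2.99, and 22 periplocin peaks at exactly 3 and 7 at 2.99. Just inside it in the bufalin list stood peaks of Arhgap35, Nav2, Chsy1, Sdhaf2 and Dusp5, all at 3, and just outside it Zfpm1, Gnpat, Plk2 and Thoc2 at 2.99 and Fam111a at 2.98. On the periplocin side Exoc3, Six5, Ccp110, Col8a1 and Mrpl40 were inside at 3, and Herc2, Mprip, Parp14 and Glt8d1 were among those outside at 2.99. All peaks in the lists passed an enrichment FDR of 0.05, and the median FDR of the strong peaks was 1.58e-11 and 1.26e-11.

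A few transcripts stood far above the rest in both lists. Shox2, a homeobox factor of pacemaker cells in the heart, had a peak of 442 bp in 1 exon block at chr2:164118273-164118714 on the minus strand, with a fold of 15.6 in the bufalin list and 13.3 in the periplocin list. Esf1, a nucleolar protein of ribosomal RNA processing, had a peak joined over 3 exon blocks at chr3:133212825-133219783 with folds of 16 and 11.7. Ahi1, a protein of the ciliary transition zone, had folds of 11.6 and 11.4 at chr1:16582099-16601769, where the peak also joined 3 blocks. These were the only 3 overlapping pairs above 10 in both lists. Shox2 had this enrichment on a modest transcript of 689 normalized counts, while Esf1 and Ahi1 stood at 5373 and 6772.

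Hsp90aa1, the stress-inducible cytosolic Hsp90, followed with 8.19 and 8.04 at chr6:135110675-135111051 and with 6.74 and 5.4 at a separate peak starting at chr6:135048102. Those regions lie 63 kb apart from end to end under the same name. Nfe2l1, a transcription factor that induces proteasome genes, had 7.45 and 7.56. Kmt2e, a Trithorax-group protein, had 5.33 and 5.29. Nmt2, which attaches myristate to proteins, had 5.05 and 5.45 in a peak of 100 bp. The zinc finger protein Zfp292 had 6.72 and 4.98, the O-glycan synthase C1galt1 had 5.31 and 4.94, and the RNA-binding protein Rbmx2 had 4.88 and 6.96. Across all 245 overlapping pairs of strong peaks under the same gene name, 177 had folds within 1.1 times of each other, 16 differed by more than 1.25 times and 2 by more than 1.5 times. The lists share control libraries, so this closeness is a description and no evidence that the compounds act alike.

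**Figure D1:**
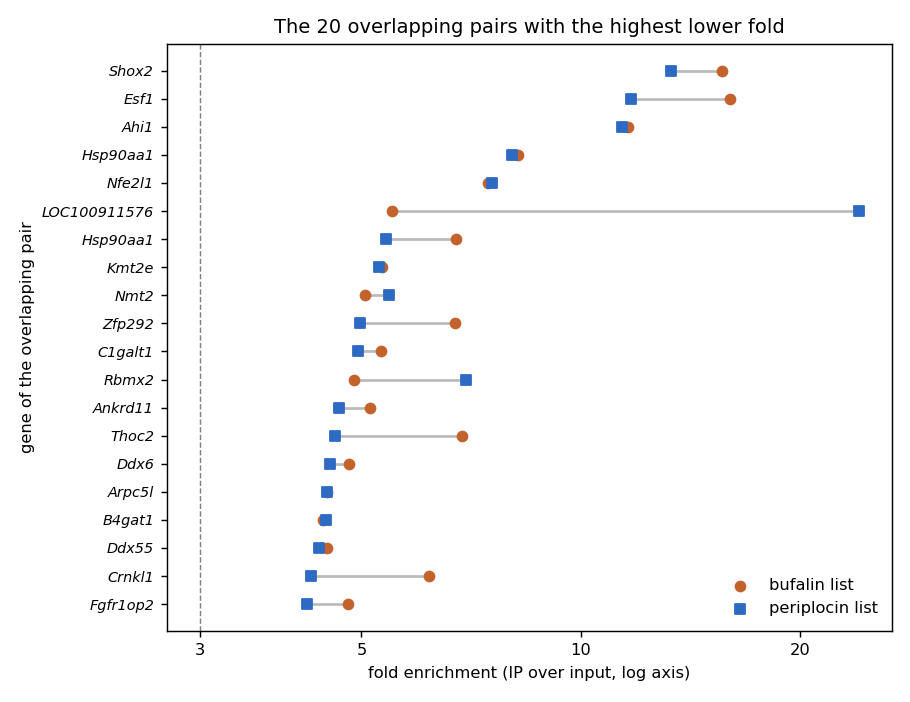
Fold enrichment on a log axis (x) of the 20 overlapping pairs of strong peaks with the highest lower fold, by gene (y); circles are the bufalin list, squares the periplocin list, each 1 value without replicates, and the dashed line marks the threshold of 3. Shox2, Esf1 and Ahi1 lie above 10 in both lists, and the locus LOC100911576 shows the widest separation at 5.5 and 24.1.

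Not every peak at the top had a strong partner. In the bufalin list Rrn3, an initiation factor of RNA polymerase I, stood at 13.3, Map3k7, the kinase TAK1, at 12 and Cstf2, a subunit of the cleavage stimulation factor of polyadenylation, at 11.3, and none of these regions held any peak in the periplocin list. Abcc5, an exporter of organic anions, had 10.8 in the bufalin list and 2.01 in the overlapping periplocin peak. Cortactin (Cttn), which binds branched actin, had 8.11 against 3.88. Among periplocin peaks Sytl2, an effector of Rab27, stood at 5.91 with no bufalin peak in the same place.

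Strong peaks were longer than the others, a property the threshold did not use directly. The summed exon block length had a median of 250 bp in the bufalin list, with quartiles of 193 and 400 bp, against 150 bp for the remaining peaks. For periplocin it was 295 bp, with quartiles of 199 and 446 bp, again against 150 bp. Peaks just below the threshold, with folds from 2.5 to 3, had medians of 250 bp for bufalin and 251 bp for periplocin. The greater length was thus not particular to strong peaks. Lengths of 500 bp or more were found in 15.1% of strong and 3.84% of other bufalin peaks, and in 17% and 3.75% of periplocin peaks. At the short end, 11.5% of strong and 37% of other bufalin peaks measured at most 101 bp, and 9.43% and 36.4% of periplocin peaks did. Over all peaks fold and length went together, with a Spearman rho of 0.46 and 0.48 across peaks, which share libraries and are not independent. Within the strong peaks alone the rho was -0.01 and -0.08.

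The longest strong peaks are extremes of the set, and the longest peak of each list, at 1989 bp, was below the threshold. Parg, the enzyme that removes poly(ADP-ribose), held the longest strong peak in the bufalin list with 1243 bp over 4 exon blocks and a fold of 3.11. Fnip1, a partner of folliculin, held 1242 bp in 1 block at 3.3, and Epm2aip1 held 1200 bp in 1 block at 3.13. The others among the 10 longest were Bcl9l, Wdr20, Ppil4, Npat, Fgfr1op2, Scaf8 and Usp42, with lengths from 901 to 1193 bp and folds from 3.04 to 4.79. For periplocin Mphosph8, a reader of histone H3 lysine methylation, held the longest strong peak with 1386 bp over 5 blocks at 3.03, followed by Bicd1 with 1347 bp and Epm2aip1 with 1250 bp. Bcl9l, Parg, Wdr20 and Fgfr1op2 were also among its 10 longest, beside Kdm5a, Map1b and Phax. No peak among these longest ones reached a fold of 5, and 10 of 10 in the bufalin list and 9 of 10 in the periplocin list were on the plus strand.

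**Figure D2:**
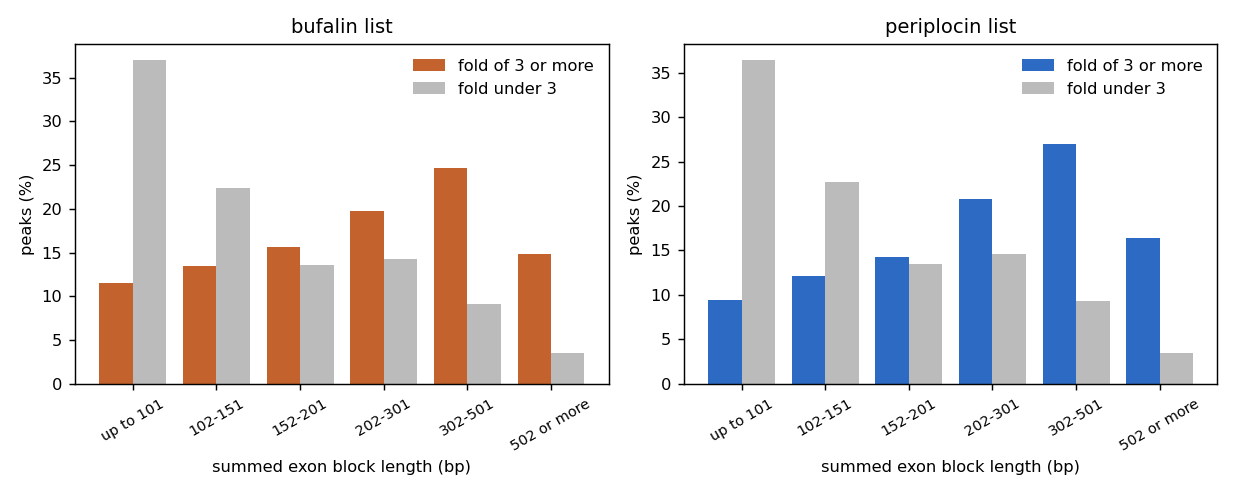
Share of peaks in percent (y) by summed exon block length in bp (x) for strong peaks (coloured bars) and all other peaks (grey bars) of the bufalin list (left) and the periplocin list (right). Up to 101 bp the other peaks hold 37% and 36.4% and the strong peaks 11.5% and 9.43%, while from 302 to 501 bp the strong peaks hold 24.7% and 27%.

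Most strong peaks also lay in a single exon block: 307 of 445 (69%) in the bufalin list against 55.1% of the other peaks, and 258 of 371 (69.5%) in the periplocin list against 55%. At folds from 2.5 to 3 only 28.5% of bufalin and 29.3% of periplocin peaks joined 2 or more blocks, so this was not particular to strong peaks. The strong peaks joined over the most exons were Ppil4 with 9 blocks spread over 24144 bp of genome, Eif3j with 8, and Psip1, Evi5, Cttn and Myh9l1 with 7 in the bufalin list. Osbpl8 and Evi5 had 7 blocks in the periplocin list, and Hspa4l, Psip1 and Nemf were among those with 6. Apart from Cttn at 8.11, Myh9l1 at 4.93 and Nemf at 4.18, these peaks had folds between 3.03 and 3.62.

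The strand of the peaks was uneven. Rat genes lie on both strands in similar numbers, yet 325 of 445 strong bufalin peaks (73%) and 270 of 371 strong periplocin peaks (72.8%) were on the plus strand. The remaining peaks of the lists leaned the same way less far, at 60.6% and 61.6%. Put the other way, 5.38% of all plus-strand bufalin peaks and 3.13% of the minus-strand ones reached a fold of 3, and in the periplocin list 4.74% and 2.9% did. Strong plus-strand peaks had a median length of 292 and 299 bp, and strong minus-strand peaks 200 and 201 bp. Strand therefore moved together with fold and length, and its part in the other results was not tested.

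This pattern turned at the top of the fold scale. From 3 to under 3.5, 23.2% of bufalin peaks and 23.1% of periplocin peaks were on the minus strand and 25.7% and 24.2% joined 2 or more exon blocks. At a fold of 5 or more, 18 of 29 bufalin peaks (62.1%) were on the minus strand and 21 (72.4%) joined 2 or more blocks, with 13 peaks doing both. Of the periplocin peaks 10 of 13 (76.9%) were on the minus strand and 11 (84.6%) joined several blocks, in a bin of fewer than 20 peaks. At 4 and above, which adds the peaks up to 5, the shares on the minus strand were 27 of 62 (43.5%) and 24 of 44 (54.5%). Esf1, Hsp90aa1, Nfe2l1 and Kmt2e had peaks of this kind, on the minus strand and joined over exons. Others at the top did not: Rrn3, Map3k7, Ahi1, Cstf2 and Abcc5 were on the plus strand, and Shox2 and Abcc5 lay in 1 block.

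**Figure D3:**
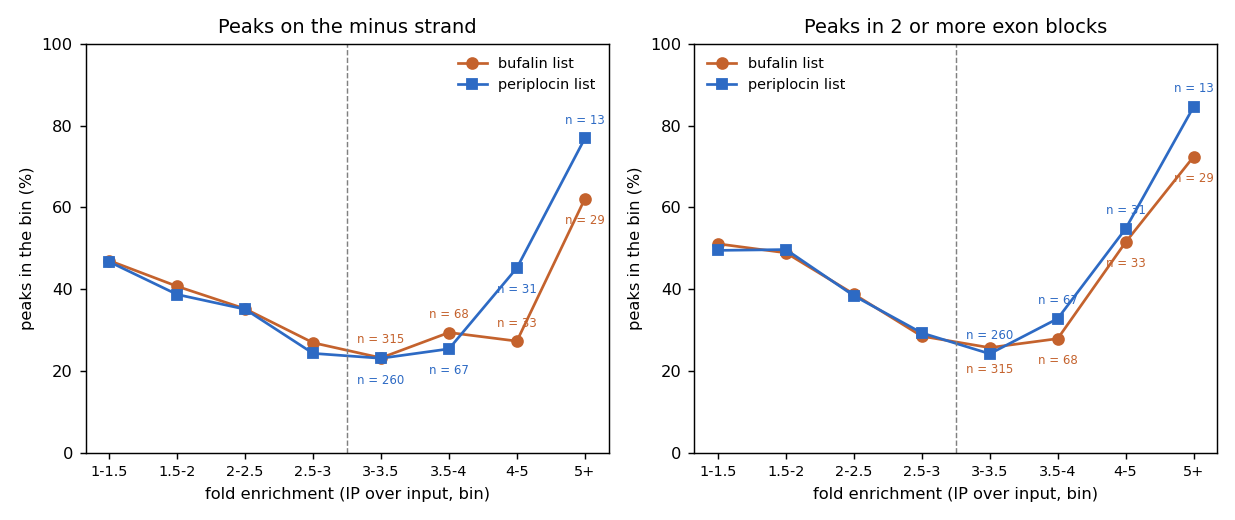
Share of peaks in percent (y) on the minus strand (left) and in 2 or more exon blocks (right) by bin of fold enrichment (x) for the bufalin list (circles) and the periplocin list (squares); the dashed line marks the threshold of 3 and n is the number of peaks in each bin above it. Both shares fall to about their lowest values between 2.5 and 3.5 and are highest at folds of 5 or more, at 62.1% and 76.9% on the minus strand.

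The place of strong peaks along genes with several peaks varied with the number of peaks. Among genes with exactly 2 peaks, 69 of 117 strong bufalin peaks (59%) were the one closer to the 3′ end, against 49.6% of the other peaks on such genes. For periplocin 56 of 95 (58.9%) were, against 49.6%. On genes with exactly 3 peaks the order differed between the lists: 29.5% of strong and 33.5% of other bufalin peaks were the most 3′ one, and 40.6% and 33% of periplocin peaks. On genes with 3 or more peaks that place held 24.9% of strong and 24.6% of other peaks in the bufalin list, and 30.1% and 24.5% in the periplocin list. By strand, on genes with 2 or more peaks, it held 43.6% of strong and 33.5% of other periplocin peaks on the plus strand. On the minus strand it held 32.9% and 34.9%. For bufalin the shares were 37.7% and 33.3% on the plus strand and 37.8% and 33.9% on the minus strand. The position is the order along the gene's strand among listed peaks, and whether a peak lies in coding sequence or in an untranslated region was not analysed here. Genes with a strong peak held 802 further bufalin peaks and 609 further periplocin peaks below the threshold; the threshold itself bounds their folds, which had medians of 1.88 and 1.86.

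Only 20 and 21 genes carried more than 1 strong peak. Kdm5a, a histone H3 lysine demethylase, held 2 in each list among 10 and 7 peaks, with folds of 4.39 and 3.56 in the bufalin list and 3.72 and 3.99 in the periplocin list. C1galt1 held 2 in each list, and both of its peaks were strong. Vcpip1, a deubiquitinase, held 3 of its 6 periplocin peaks above the threshold at 3.52, 3.22 and 3.12. Hps6, a subunit of a lysosome biogenesis complex, held 2 of 4 at 4.41 and 3.13. Tpp2, a large cytosolic peptidase, held 2 of 5 bufalin peaks at 4.46 and 5. Hsp90aa1 held 2 strong peaks in the bufalin list and 3 in the periplocin list, which were all of its peaks.

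Some rows repeat the same RNA under several names, and their reads cannot be assigned to a single gene. In the bufalin list 19 rows fell into 5 such regions, leaving 431 distinct regions, and in the periplocin list 6 rows fell into 3, leaving 368. The largest set was the shared exon of the alpha protocadherin cluster, cell adhesion genes that splice different first exons to common last ones. It was listed under 15 names around chr18:30213222-30213454. In the bufalin list its rows had folds from 2.72 to 3.41 and 11 of them passed 3, whereas in the periplocin list they had folds from 2.43 to 2.79 and 0 passed. In the authors' deposited table the enrichment changes of these rows ran from 0.13 to 0.31 on the log2 scale with a lowest unadjusted p of 0.665 for bufalin, and from -0.49 to -0.22 with a lowest p of 0.251 for periplocin. The shared exon was thus strong in the bufalin list alone, with folds on either side of the threshold. A separate peak of Pcdha5 at chr18:29980866-29981016, named after its value was seen, was strong in the periplocin list at 3.09, with 1.44 in the overlapping bufalin peak.

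Nonmuscle myosin heavy chain Myh9 shared 2 strong regions with a row named Myh9l1 in the bufalin list, at 3.8 and 3.66 and at 3.29 and 3.59. Myh9l1 had 5 strong peaks there, the most of any name, from 3.59 to 4.93, and they stretch from chr7:118743200 to 119006146. The spliceosomal protein Crnkl1 shared its peak of 6.19 and 4.26 with LOC102548514, a locus whose RNA was listed at 0. Hnrnpc, a protein that binds RNA whose structure m6A has opened, had 3.83 and 4.18 in a peak of 101 bp inside the region of LOC100911576, named here because it held the highest periplocin fold. That locus had 24.1 in the periplocin list over 295 bp and 5.5 in the bufalin list over 197 bp. Whether reads of near-identical copies were split or counted more than once was not tested, and the folds in these regions are uncertain.

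The strong peaks of both lists mostly covered the same places. An overlap of at least 1 base of exon block on the same strand joined 245 strong bufalin peaks, 55.1% of that set, and 245 strong periplocin peaks, 66% of that set, to a strong peak of the other list. Of the 245, 139 had the same start and end in both. Any peak of the other list was overlapped by 419 of 445 (94.2%) and 356 of 371 (96%), where 83% of all bufalin and 89.4% of all periplocin peaks overlapped one. When the partner was weaker it was usually just below the threshold: the highest overlapping fold had a median of 2.78 for 174 bufalin peaks and 2.82 for 111 periplocin peaks, and reached 2.5 in 135 and 97 of them. The lowest partners, picked out after their values were seen, were those of Snrnp48, at 4.04 in the bufalin list and 1.32 in the other, and of Map2k3, a kinase of the p38 pathway, at 3.61 in the periplocin list and 1.29 in the other.

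No peak at all lay opposite 26 bufalin (5.84%) and 15 periplocin strong peaks (4.04%), a smaller share than the 17% and 10.6% of all peaks. They were shorter, with medians of 150 and 149 bp against 300 and 299 bp for peaks strong in both lists. Of them 12 of 26 and 10 of 15 joined 2 or more exon blocks. Among the highest folds were those of Rrn3, Map3k7 and Cstf2, then Chid1 at 5.58 and Smarcb1 at 5.5 for bufalin, and Sytl2, Zmynd19 at 5, Atn1 at 4.78 and Mff at 4.32 for periplocin. Mff recruits the mitochondrial fission machinery and Atn1 is a transcriptional corepressor. A peak missing from a list did not pass the authors' calling there, which does not show that the site was unmethylated.

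Very few strong peaks changed in enrichment after treatment. The change is a contrast of treated with control cells that the threshold did not use, although the fold was read as drawn from the same libraries. No header gives its sign, so higher and lower here and below rest on reading it as treated over control. At an FDR under 0.05 the authors called 1 of 445 strong bufalin peaks (0.225%), where they called 0.0304% of all peaks in that list (3 of 9866). Among strong periplocin peaks they called 2 of 371 (0.539%), where they called 0.0436% of all (4 of 9170). Both shares lie above those of all peaks but rest on 1 and 2 peaks, and the difference was not tested. At an unadjusted p under 0.05 there were 21 strong bufalin peaks, 12 higher and 9 lower, against a background of 3.04% of all peaks, and 19 strong periplocin peaks, 12 higher and 7 lower, against 3.37%. These 21 and 19 are 4.72% and 5.12% of the strong peaks.

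The called bufalin peak was on Smarcb1, a core subunit of the SWI/SNF chromatin remodeller. In the authors' deposited table its enrichment was 4.89 higher on the log2 scale (29.7-fold) with bufalin, at an FDR of 0.0138 and a fold over input of 5.5. It joins 2 exon blocks of 147 bp in all on an unplaced scaffold. The periplocin peaks were on Zmynd19 and Rufy2. Zmynd19, a zinc finger protein, had an enrichment that fell by 6.42 on the log2 scale in the authors' deposited table, at an FDR of 0.000501, in a peak of 98 bp over 2 blocks at chr3:2159141-2160553. Rufy2, a protein of endosomal membranes, rose by 5.71 on the log2 scale in the authors' deposited table, at an FDR of 0.00603, in a peak of 148 bp over 2 blocks at chr20:27228161-27230626 with a fold of 3.14. All 3 peaks were short, joined 2 exon blocks and had no overlapping peak in the other list. The RNA changes of these genes were small: the authors' deposited table gives log2 changes of 0.01 ± 0.09 (SE) for Smarcb1, -0.08 ± 0.11 for Zmynd19 and 0.03 ± 0.09 for Rufy2.

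**Figure D4:**
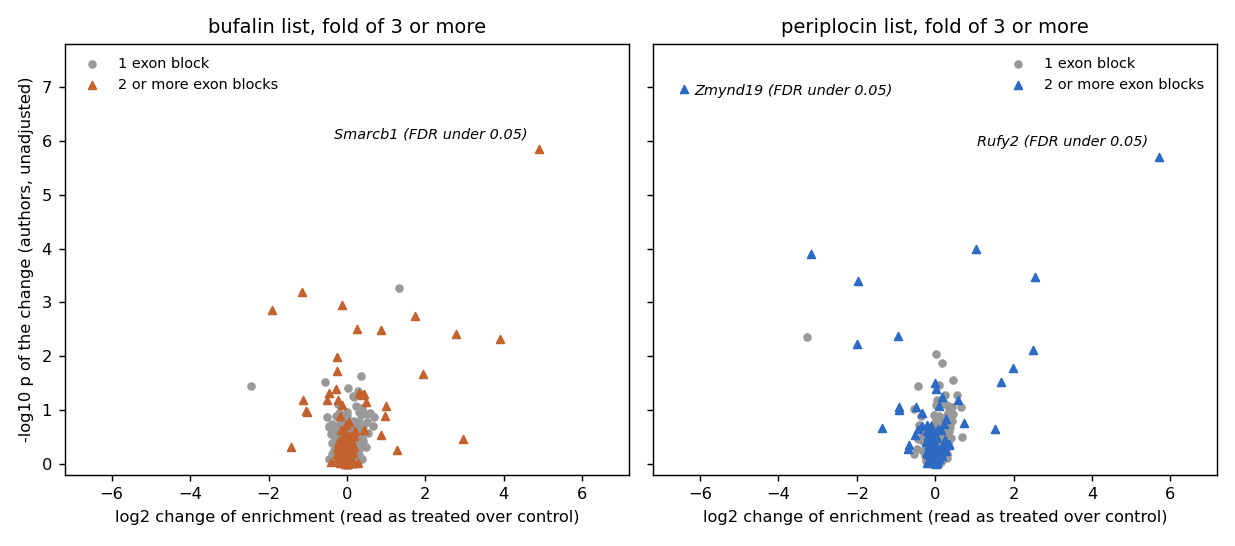
Log2 change of enrichment, read as treated over control (x), against -log10 of the authors' unadjusted p (y) for the strong peaks of the bufalin list (left, 445 peaks) and the periplocin list (right, 371 peaks). Circles are peaks in 1 exon block, triangles peaks in 2 or more, and genes with an FDR under 0.05 are named. Most peaks sit near 0, and 13 of 15 and 12 of 13 peaks with a change of at least 1 are triangles.

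For the strong peaks as a whole the change was close to 0. The fold that chose them was read as drawn in part from the treated libraries, which no header states. Where the lists differed, the fold was higher in the list with the higher change in 132 of 143 peaks. The choice by fold was thus not independent of the change, and the shares below are a description. The median log2 change from the authors' deposited table was 0.01 for strong and -0.02 for other bufalin peaks, and 0.02 and -0.01 for periplocin. The change was above 0 in 52.6% of strong and 44.8% of other bufalin peaks, and in 56.3% and 47.3% of periplocin peaks. Changes of at least 1 on the log2 scale were found in 15 strong bufalin peaks (3.37%), 8 up and 7 down, against 0.616% of the others. With periplocin they were found in 13 (3.5%), 7 up and 6 down, against 0.648%. By fold, 8 of 29 bufalin peaks with a fold of 5 or more had such a change against 1.68% of those from 3 to 5, and 3 of 13 periplocin peaks against 2.79%. Of the strong peaks with such a change 13 of 15 and 12 of 13 joined 2 or more exon blocks, where 40 of 73 and 37 of 70 of all peaks with such a change did. No partner in the other list was found for 6 of 15 and 8 of 13 of them, close to the 32 of 73 and 38 of 70 among all peaks with such a change.

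Several large changes that did not pass the FDR recurred in both lists, which share their controls. In the authors' deposited table the Hsp90aa1 peak with the highest fold had log2 changes of -1.90 with bufalin (unadjusted p = 0.00138) and -1.98 with periplocin (p = 0.000407). Cttn had 1.73 (p = 0.00182) and 1.04 (p = 1e-04) in the authors' deposited table. B4gat1, a glycosyltransferase of alpha-dystroglycan, had -2.45 (p = 0.0363) and -3.27 (p = 0.00447) in the authors' deposited table, in the same 100 bp block. Another Hsp90aa1 peak, listed for periplocin only, had -3.16 (p = 0.000126) in the authors' deposited table. Map3k7 had 3.90 (p = 0.00468) with bufalin and Atn1 had 2.54 (p = 0.000339) with periplocin in the authors' deposited table. Their FDR values in the authors' deposited table ran from 0.184 to 1, so none of these counts as a change.

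Strong peaks were found on well-expressed transcripts. The authors' mean normalized count had a median of 2642 over genes with a strong bufalin peak, with quartiles of 1280 and 5031, against 1994 over genes with weaker peaks only. For periplocin it was 2671, with quartiles of 1331 and 5258, against 1999. Means of under 100 were found in 12 and 2 of these genes, and 10 of the bufalin ones were rows of the alpha protocadherin exon. Myh9 was the most abundant at 186057 and 177343. Over all peaks the Spearman rho of fold and the gene's mean count was -0.00 and 0.01, across peaks that share genes and libraries. Per peak, the median level was 2509 for bufalin and 2660 for periplocin at folds from 3 to 3.5. It was 2641 and 2669 at folds from 2.5 to 3, and 2821 and 2753 at folds from 1 to 1.5. The difference seen per gene was thus not seen per peak just above the threshold. At folds from 3.5 to 4 the level was 3664 and 2824, and from 4 to 5 it was 2216 and 3972. At folds of 5 or more it was 5261 and 5404, the last from 13 peaks.

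Few of these genes changed in RNA. The authors' adjusted p was under 0.05 for 2 of 240 genes with a strong bufalin peak and an adjusted p, where 0.301% of all genes with one passed (10 of 3321). For periplocin it was under 0.05 for 6 of 347, where 0.538% of all passed (67 of 12445). At an unadjusted p under 0.05 there were 39 of 419 (9.31%) for bufalin against a background of 5% of all genes, and 47 of 347 (13.5%) for periplocin against 6.25%. Genes with weaker peaks only, which are also well expressed, stood between at 7.07% and 8.88%, and the part of expression level in these shares was not tested.

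With bufalin both called genes rose. The authors' deposited table gives Dnmt3a, a de novo DNA methyltransferase, a log2 change of 0.29 ± 0.07 (SE, adjusted p = 0.0101) and the muscle myosin heavy chain Myh1 one of 0.47 ± 0.11 (adjusted p = 0.013). The Dnmt3a peak had a fold of 3.46 and the Myh1 peak 3.33, and their enrichment changes in the authors' deposited table were -0.04 (p = 0.594) and 0.44 (p = 0.229). With periplocin 5 genes rose and 1 fell. Rnd3, which antagonises RhoA signalling, rose by 0.34 ± 0.08 in the authors' deposited table (adjusted p = 0.00263), and Taf7, a subunit of TFIID, by 0.39 ± 0.09 (adjusted p = 0.00526). The linker Macf1, the anchoring protein Akap9 and the chromatin protein Baz2a rose by 0.16 ± 0.03, 0.16 ± 0.04 and 0.21 ± 0.06 in the authors' deposited table, with adjusted p of 0.000766, 0.0321 and 0.0238. Integrin alpha 4 (Itga4) had -0.27 ± 0.07 there (adjusted p = 0.026 in the authors' deposited table). Their strong peaks had folds from 3.13 to 3.73 and enrichment changes from -0.03 to 0.32 with unadjusted p from 0.332 to 0.967 in the authors' deposited table, so none of the 8 genes had a called change of enrichment. Over all strong peaks the Spearman rho of enrichment change and RNA change was -0.06 for bufalin and -0.09 for periplocin.

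The gene lists do not cover every gene of a class and are described by their shares alone. The chromatin list, for example, leaves out Kmt2e (5.33 and 5.29) and Smarcb1 (5.5 in the bufalin list). Over all genes with any peak 8.24% carried a strong bufalin peak and 7.13% a strong periplocin peak. Of the listed Polycomb, Trithorax and other chromatin regulators with a peak, 7 of 28 did in the bufalin list and 8 of 26 in the periplocin list. Kdm5a, Ash1l, Setd5, Smarca4, Dnmt3a and Ncor1 were in both sets. Ash1l, a histone H3 methyltransferase, had 3.79 and 3.87 at its highest peak, Setd5 had 3.67 and 3.33 and the SWI/SNF ATPase Smarca4 had 3.45 and 3.42. Setd2, which trimethylates H3 lysine, was at 3.44 in the bufalin list and at 2.96 in the overlapping periplocin peak, while Chd7 and Kdm2b passed with 3.2 and 3.24 in the periplocin list and had 2.96 and 2.69 in the other, these 3 being named after their values were seen. Most of these proteins are encoded by long transcripts with many peaks, such as the 10 on Ash1l, and the part of transcript length in the share was not tested.

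Myogenic and sarcomere genes had 4 of 13 in the bufalin list and 1 of 12 in the periplocin list. The only periplocin gene was the nonmuscle myosin Myh9 (3.8 and 3.03), which is also counted for bufalin and whose strong regions are shared with Myh9l1. Serum response factor (Srf), which drives muscle and immediate early genes, led the bufalin genes at 4.2 with no periplocin peak in the same place. Its coactivator Myocd had 3.38, also without a partner, and Myh1 had 3.33 against 2.79. Among the listed homeobox, Sox and Fox factors the strong peaks were Hoxb4 (3.6), Six5 (3.12) and Sox9 (3.05) of 19 genes with a bufalin peak. For periplocin they were Sox4 (4.18) and Six5 (3) of 19. Shox2 and Hoxd13 (3.04 and 3), strong in both lists, and Emx2 (3.69 for periplocin) were not among the listed factors. Nuclear receptors and coregulators had 2 of 19 and 3 of 20 genes with a peak. These were Nr2f2 at 3.69 and 3.58 and the thyroid hormone receptor Thra at 3.29 and 3.81, with Rara at 3.08 in the periplocin list only.

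Signalling lists held a few members each, counted here among genes with a peak, beside 8.24% and 7.13% of all such genes. Notch had 2 of 11 and 1 of 7, and Wnt 2 of 14 and 1 of 13. TGF-beta and BMP had 1 of 22 and 1 of 21, and growth factor signalling 3 of 21 and 3 of 22. Ubiquitin ligases had 2 of 22 and 1 of 21, and collagens, laminins and integrins 3 of 22 and 3 of 21. Giant linkers had 2 of 15 and 1 of 15, and the m6A machinery 1 of 13 and 2 of 14. No difference from all genes was tested. Notch2, a receptor of the Notch pathway, had peaks at 3.52 and 3.26 in the bufalin list and 3.57 in the periplocin list, and the corepressor Spen had 3.05 in the bufalin list. In the Wnt pathway the beta-catenin coactivator Bcl9l had 3.41 and 3.17 and the scaffold Apc had 3.02 in the bufalin list. Pdgfrb, the PDGF receptor beta, had 3.4 and 3.37 and the EGF receptor ligand Hbegf had 3.22 and 3.09, while the feedback inhibitors Spry4 (3.06) and Spry2 (3.7) were each strong in a single list. Smad1 had 3.3 in the bufalin list and Gdf11 3.42 in the periplocin list. Among ubiquitin ligases Spop, a substrate adaptor, had 4.26 and 3.77 and Herc2 had 3.07 and, just outside, 2.99. The integrins Itga4 and Itga5 and the collagen Col8a1 were strong in both lists, with folds from 3 to 3.41. The giant linker Macf1 had 3.08 and 3.14, and Ahnak, with 27 peaks, had 3.28 and 3.06 in the bufalin list. Of the m6A machinery itself Hnrnpc was strong in both lists and the reader Ythdf3 in the periplocin list at 3, with 2.95 in the other.

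Other groups had many expressed genes and no strong peak. Cytosolic ribosomal proteins had peaks on 20 and 19 of 74 expressed genes and 0 strong ones, with Rps20 highest at 2.44 and 2.22. Proteasome subunits had 0 of 13 and 0 of 16, cell cycle and replication genes 0 of 15 and 0 of 13, and the Hippo pathway 0 of 12 in each, led by Lats2 at 2.96 and 2.89. Glycolysis had 0 of 4 and 0 of 5. The nuclear-encoded respiratory chain had peaks on 5 of 58 genes and a strong one on Atp5pb, an ATP synthase subunit, at 5.09 and 3.21 in the bufalin list only, in peaks 160 kb apart from end to end. Immediate early genes had Dusp5 at 3 among 23 with a bufalin peak and 0 among 22 for periplocin. The sodium pump subunits, the target of both compounds, had a bufalin peak on 0 of 6 expressed genes and a periplocin peak on 1, Atp1b3, at 1.34. A low share in a list of few genes with peaks is not shown to differ from the background.

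**Figure D5:**
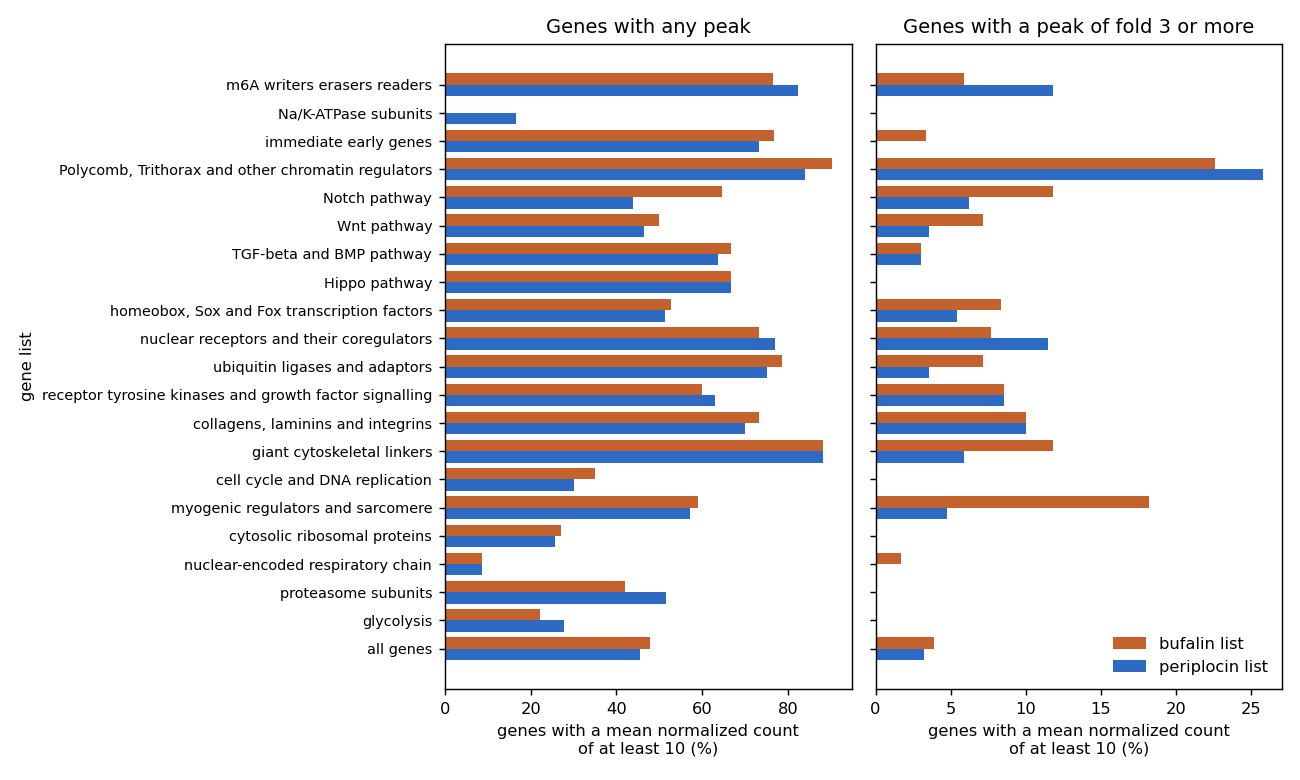
Share in percent (x) of the expressed genes (authors' mean of 10 normalized counts or more) that carried any peak (left) or a strong peak (right), by gene list (y), in the bufalin list and the periplocin list; the last row is all genes. The lists do not cover every gene of a class. Listed chromatin regulators have the largest share with a strong peak, at 22.6% and 25.8% against 3.91% and 3.24% of all genes. Listed ribosomal proteins, proteasome, glycolysis, Hippo, sodium pump and cell cycle genes have none.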

How the data were processed

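MeRIP-seq of 18 H9c2 libraries was analysed from peak lists and RNA tables. Reads were aligned with HISAT2 to rn6 and processed with StringTie and DESeq, per the submitters' processing notes; the sources used here do not name the peak caller. The library kit is stranded and labels molecules with UMIs, per the labels' protocols. The deposited lists give exon blocks in rn6, the authors' fold enrichment as a ratio, read as IP over input, log10 p and FDR values, an unadjusted p-value in the score field, and the log2 change of enrichment with its log10 p and FDR. The deposited RNA tables give the authors' mean normalized count as a signal, log2 fold changes with SE, a test score and p-values; no source says if input or IP libraries went into them. Depth is unknown because no table holds counts per library. Fold and peak values are given as deposited, without new p-values.

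No header gives the sign of the enrichment change, which was taken as treated against control. Of 4787 peaks with the same ends in both lists, 143 had changes that differed by at least 0.5 between the lists. In 132 of these the fold was higher in the list with the higher change. The fold was read as drawn from treated and control libraries, which no header states, so this reading and the sign rest on each other. In the RNA tables, control means computed from both agreed within 1% in 10608 of 10608 genes with fold changes taken as treated against control. The sign of the test score in the periplocin table is opposite to its fold change, and the score was not used.

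Peaks with a fold of at least 3 were kept. Overlap meant at least 1 shared base of exon block on the same chromosome and strand, and its code was tested on simulated data. Analyses used Python 3.11.15, pandas 2.3.3, scipy 1.17.1 and networkx 3.6.1. Gene names are those of the files, and all were found in the RNA tables. Named per list were the 10 peaks with the highest fold, called changes, the 5 genes with the most strong peaks, the 5 nearest on each side of the threshold, the 10 longest and up to 5 with the most exon blocks; over both lists the 10 highest pairs and up to 5 peaks per list without a partner; up to 4 peaks per gene list; and genes with a called RNA change. Some items the rule takes are not reported here. Names that are only locus numbers were counted, and LOC100911576 and LOC102548514 were named after their values were seen. The peaks and the 20 gene lists were chosen with earlier results of these data known. No genome of the rn6 build was used here, so no peak sequences are shown.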

Additional observations from a re-analysis of the deposited data

How the results depend on the processing

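The 18 results were recomputed under 68 alternatives, and 46 moved the value little. A fold threshold of 2.5 gave 1382 bufalin and 1197 periplocin peaks and a threshold of 4 gave 62 and 44. At 4 the plus-strand share was 56.5% and 45.5%, the share in 1 exon block 38.7% and 36.4%, the most 3′ share for bufalin 45% (37.7% at 3), and for periplocin the median length 224 bp, the median RNA level 3972 and the peaks with a called change 1. Genomic span with introns gave median lengths of 350 and 351 bp. Unadjusted p-values under 0.05 gave 21 and 19 peaks with changed enrichment and 39 and 47 genes with changed RNA. On genes with 3 or more peaks the most 3′ share was 24.9% and 30.1% (37.7% and 40.7% with 2 or more). Counting any peak of the other list raised the overlap to 94.2% and 96%. Adjusting the bufalin RNA p-values over all genes with a p added Slc5a3, an inositol transporter, to the called genes, for 3 in all (named after its value was seen). Counting each shared region once and the thresholds of 2.5 and 4 for strand and exon blocks were chosen after seeing the data. No paired analysis was possible because each table holds 1 value per comparison, and for the same reason no library could be left out in turn. Depth and replicate spread behind each fold are unknown, so folds close to 3 cannot be ordered.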

Other observations

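Gene families seen by name gave a few further groups, set beside the 8.24% and 7.13% of all genes with a peak that carried a strong one. Ubiquitin-specific proteases, which remove ubiquitin from proteins, had strong peaks on 6 of 28 genes with a peak in the bufalin list and 5 of 28 in the periplocin list, and Usp1, Usp24, Usp38 and Usp42 were in both. Ankyrin repeat genes had 2 of 12 and 4 of 12, including the cardiac stress gene Ankrd1 with a peak of 100 bp at 4.33 and 4.09. The large family of Zfp zinc finger genes had 6 of 104 (5.77%) and 7 of 96 (7.29%), near the share of all genes. Arhgap genes had 4 of 16 in the bufalin list and 1 of 16 in the periplocin list. These groups were chosen after the names were seen, and no test was made.

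By chromosome, the share of strong peaks in the bufalin list was 9.06% on chromosome 18, where 28 of 309 peaks were strong, and 18 distinct regions remained once the rows of the alpha protocadherin exon were counted once. In the periplocin list the same chromosome had 15 of 291, or 5.15%.

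Hmgb3, a high-mobility-group protein, was the only gene with a strong peak whose name was listed on more than 1 chromosome. Its strong periplocin peak lay at chr17:36693044-36693392 with a fold of 4, and a weaker one of 1.33 lay on chromosome 14.

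Of the peaks with a called change of enrichment, 2 bufalin and 2 periplocin peaks were below the fold threshold. The authors' deposited table lists Dlg4 among them, at a fold of 1.29 and a log2 change of 0.24, with its log10 p at -434, a numerical floor, so its p-value cannot be read.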
